A study of Arabidopsis thaliana with 10 samples.

Results

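Plastid ribosomes translate the proteins encoded in the chloroplast genome, among them core subunits of the photosystems and the large subunit of Rubisco. They are of the bacterial type, with a small 30S and a large 50S subunit, and most of their proteins are encoded in the nucleus, made in the cytosol and imported. In a growing shoot, cells leaving the meristem turn proplastids into chloroplasts, and plastid ribosomes are built up as young leaves do so. The nuclear genes for plastid ribosomal proteins are described here in vegetative shoot apices of Arabidopsis thaliana with altered activity of CIN-TCP genes, a class of transcription factors that limits growth at leaf margins and promotes leaf maturation.

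Of 41 nuclear genes known to encode proteins of the plastid 30S or 50S subunit, 10 had a probe set for which the platform annotation lists that gene and no other. All 10 were bright enough to be tested, which required a mean log2(signal + 16) over the 10 arrays at or above the 40th percentile of the 22746 probe sets other than controls. No member was close to that limit, the dimmest lying at percentile 97.4 and the brightest at percentile 99.6. The other 31 genes were not analysed here. The annotation gives these 10 genes only by locus code, so the protein names below are background knowledge of the loci. Of the 10, 3 belong to the 30S subunit and 7 to the 50S subunit. Brightness depends on the probes as well as on the transcript, so levels were compared between arrays and not between genes.

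The series holds 10 arrays in 5 groups of 2, all from apices of soil-grown plants kept at 20 °C with 10 h of light. The octa plants, of the Col accession and 18 DAS (the labels' age code), were read here, from the series' design text, as plants carrying both microRNAs described next, which together target all 8 CIN-TCP genes; their own label gives no genotype beyond the name. The miR319b plants (Col, 17 DAS) overexpressed from the 35S promoter the natural microRNA, whose targets are TCP2, TCP3, TCP4, TCP10 and TCP24. The miR-3TCP plants (Col, 14 DAS) overexpressed, also from 35S, an artificial microRNA that targets the class members TCP5, TCP13 and TCP17. The 35S promoter is active in most plant tissues, so these microRNAs were not limited to leaves. In the BLS>>TCP4 plants (14 DAS), which were of the Ler accession and not Col, TCP4 was driven by BLS, a promoter specific to leaves. The common comparison group was unaltered Col at 14 DAS. The labels do not say how many plants were pooled, how many transgenic lines were used or whether the 2 samples of a group were grown separately, so the spread behind the p-values is that between these samples and may be technical.

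Each array's median signal was 50. The BLS>>TCP4 arrays stood apart in their bright signals, with a 99th percentile of 2699 and 2812, against 1554 to 1929 on the 8 other arrays. Replicates also differed more there, the standard deviation of the log2 difference over tested probe sets being 0.44, against 0.24 to 0.30 in the other groups. Of the apical meristem markers considered, only CLV3 had a listed probe set, and its signals of 0.654 to 7.26 were too dim to test. The leaf marker RCA, the Rubisco activase gene, had signals of 2780.3 to 6275, and PYK10, fixed as a root marker, had 992 to 2113. The tissue label could thus be checked for leaf cells by 1 of 8 leaf markers considered, but not for the meristem. PYK10 was at 1827.7 to 2113 on the 8 Col-accession arrays, above the 99th percentile of each. The source of this root marker signal was not tested. The targeted CIN-TCP genes were not analysed here. In bulk apices, fewer cells of a type and less RNA per cell cannot be told apart.

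**Figure D1:**
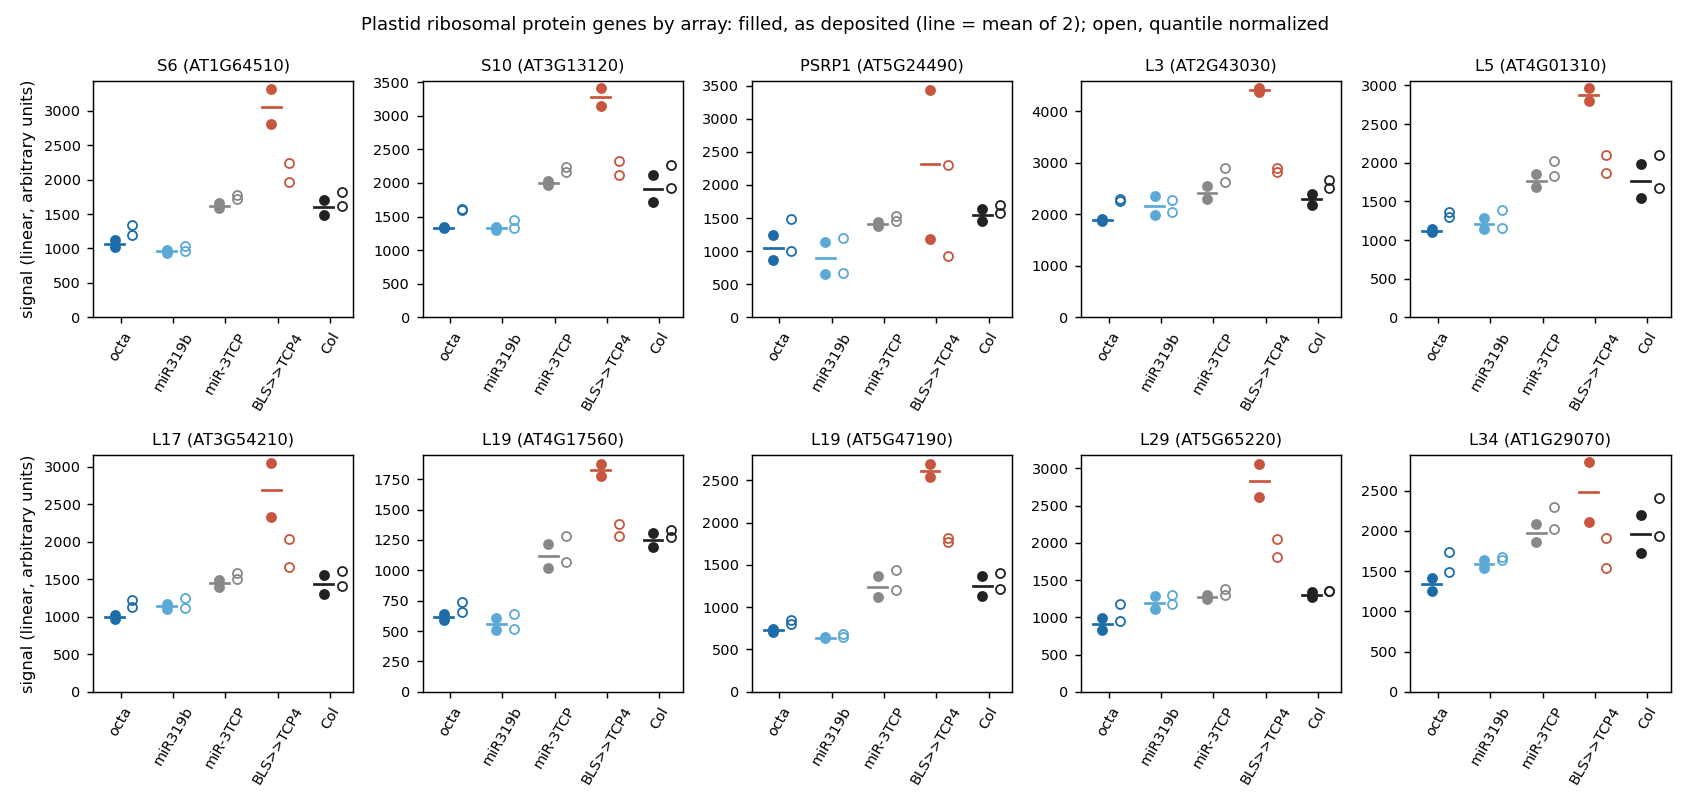
Signal of each of the 10 plastid ribosomal protein genes (y axis, linear arbitrary units, starting at 0) on each array, by group (x axis). Filled points are deposited signals with a line at the mean of 2 arrays, and open points are the same arrays after quantile normalization; octa and miR319b are the lowest 2 groups in all 10 panels, and the filled BLS>>TCP4 mean is the highest in all 10.

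All 10 genes had their lowest 2 group means in octa and miR319b and their highest in BLS>>TCP4, with miR-3TCP and Col between them. After quantile normalization, which forces the same distribution of signals on every array, octa and miR319b were still the lowest 2 groups for all 10, while BLS>>TCP4 was the highest for 8. Neither of the lowest 2 groups was below the other throughout. As deposited miR319b was the lower for 5 genes and octa for 5, and after quantile normalization miR319b for 7 and octa for 3. The 10 genes together held 0.329% and 0.361% of an array's summed signal in octa and 0.343% and 0.327% in miR319b. They held 0.456% and 0.489% in miR-3TCP, 0.608% and 0.681% in BLS>>TCP4, and 0.438% and 0.50% in Col. These shares were low on all 4 arrays with miR319b overexpression and high on both BLS>>TCP4 arrays, with no overlap with Col in either case, and they overlapped between miR-3TCP and Col.

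The 30S members were the genes for S6 and S10 and the gene for PSRP1. In bacteria S6 binds the central part of the small subunit's RNA together with S18, and S10 sits in the head of the small subunit. The S6 gene (AT1G64510) had signals of 1022 and 1121 in octa, 979 and 935 in miR319b, 1592 and 1654 in miR-3TCP, 2800.3 and 3310.4 in BLS>>TCP4, and 1491 and 1709 in Col. Both octa and both miR319b arrays were thus below every array without miR319b overexpression, and both BLS>>TCP4 arrays above. The S10 gene (AT3G13120) had 1348 and 1323 in octa, 1351 and 1302 in miR319b, 1972 and 2036 in miR-3TCP, 3411 and 3142 in BLS>>TCP4, and 1716 and 2115 in Col. Its groups were ordered in the same way, and the Col arrays enclosed the miR-3TCP arrays.

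PSRP1 binds the small subunit and is related to bacterial factors that hold ribosomes in an inactive state, so it is a ribosome-associated factor more than a structural protein. Its gene (AT5G24490) had signals of 863 and 1242 in octa, 1137 and 652 in miR319b, 1382 and 1441 in miR-3TCP, 1188 and 3430.0 in BLS>>TCP4, and 1460.3 and 1643 in Col. The BLS>>TCP4 arrays lay on either side of the Col arrays, the widest gap between replicates of any member (1.52 on the log2 scale). The gene passed the test in none of the comparisons below with all arrays in the fit. As deposited, its correlation with the mean pattern of the other 9 members over the 10 arrays was 0.727, the lowest of the 10. The others had 0.908 to 0.987 (descriptive values, n = 10 arrays that share a scale). After quantile normalization the L34 gene was lowest at 0.57, followed by the PSRP1 gene at 0.63 and the L29 gene at 0.68. The remaining members then had 0.888 to 0.971. Since the PSRP1 gene was not called in those comparisons, leaving it out could not change their counts of called genes.

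Among the 50S members, 2 genes encode L19, which in bacteria lies at the interface with the small subunit. One of them, AT4G17560, had signals of 588 and 644 in octa, 604 and 507 in miR319b, 1017 and 1218 in miR-3TCP, 1877 and 1774 in BLS>>TCP4, and 1188 and 1307 in Col. The other, AT5G47190, had 711 and 741 in octa, 642 and 633 in miR319b, 1117 and 1363 in miR-3TCP, 2537 and 2689 in BLS>>TCP4, and 1134 and 1366 in Col. On the 4 arrays with miR319b overexpression both were well below the 4 Col-accession arrays without it, with no overlap. The genes encode the same protein family and each has its own probe set. Whether transcripts of one bind probes of the other was not tested.

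L3 and L5 take part in the early assembly and the RNA core of the large subunit, L5 by binding the small 5S RNA in bacteria. The L5 gene (AT4G01310) had signals of 1099 and 1143 in octa, 1281 and 1138 in miR319b, 1680.3 and 1849 in miR-3TCP, 2964 and 2802 in BLS>>TCP4, and 1539 and 1979.7 in Col. The L3 gene (AT2G43030) had 1904 and 1869 in octa, 1979 and 2362 in miR319b, 2299 and 2547 in miR-3TCP, 4458 and 4369 in BLS>>TCP4, and 2181 and 2397 in Col. L5 was lower on all 4 arrays with miR319b overexpression, whereas for L3 the octa arrays were below Col and the miR319b arrays overlapped Col. After quantile normalization the L3 values in miR319b, 2051.2 and 2272.5, were below those in Col, 2504.8 and 2657.

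In bacteria L17 and L29 lie around the exit of the tunnel through which new proteins leave the ribosome, and L34 is a very small protein bound to the large subunit's RNA. The L17 gene (AT3G54210) had signals of 971 and 1027 in octa, 1172 and 1105 in miR319b, 1402 and 1493 in miR-3TCP, 2325 and 3044 in BLS>>TCP4, and 1303 and 1555 in Col. The L29 gene (AT5G65220) had 832 and 986 in octa, 1114 and 1282 in miR319b, 1304 and 1248 in miR-3TCP, 2611 and 3061 in BLS>>TCP4, and 1268 and 1333 in Col. The octa arrays were below Col for both, while for L29 one miR319b array exceeded one Col array. The L34 gene (AT1G29070) had 1253 and 1418 in octa, 1544 and 1636 in miR319b, 1857 and 2082 in miR-3TCP, 2111 and 2856 in BLS>>TCP4, and 1729 and 2202 in Col. It was the member, besides the PSRP1 gene, whose BLS>>TCP4 and Col arrays overlapped.

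For reduced activity of all 8 CIN-TCP genes, octa was set against Col. The S6, L5 and both L19 genes fell, 4 of 10 members called at an adjusted p under 0.05, and no member rose. Of all 13648 probe sets tested, 1.52% were called lower in octa and 0.271% higher. AT4G17560 changed by -1.0 ± 0.14 (log2, SE, adjusted p = 0.0160), AT5G47190 by -0.76 ± 0.13 (adjusted p = 0.0291), the L5 gene by -0.63 ± 0.13 (adjusted p = 0.0479) and the S6 gene by -0.57 ± 0.12 (adjusted p = 0.0480). The 6 members that did not pass had log2 differences between -0.57 for the PSRP1 gene and -0.28 for the L3 gene. For all 10 members both octa arrays were below both Col arrays, as they were for 32.0% of all probe sets tested. Of the 584 other probe sets at least as bright as the dimmest member, 50.5% were below in that sense. With quantile normalization all 10 members were too, against 23.1% of all and 26.9% of the bright probe sets. The members' median was -0.56, against -0.05 over all probe sets and -0.13 over those 584, of which 5.82% were called lower.

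With quantile normalization only the 2 L19 genes were called lower in octa (-0.89 and -0.65, adjusted p = 0.0213 and 0.0373), against 0.953% of all probe sets, and the members' median was -0.42. Each array of octa and Col was also left out in turn, which leaves 1 array in a group. The changes then were -1.07 to -0.93 for AT4G17560 and -0.90 to -0.63 for AT5G47190. The octa plants were sampled at 18 DAS and Col at 14 DAS, and an effect of age cannot be told apart from one of genotype.

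**Figure D2:**
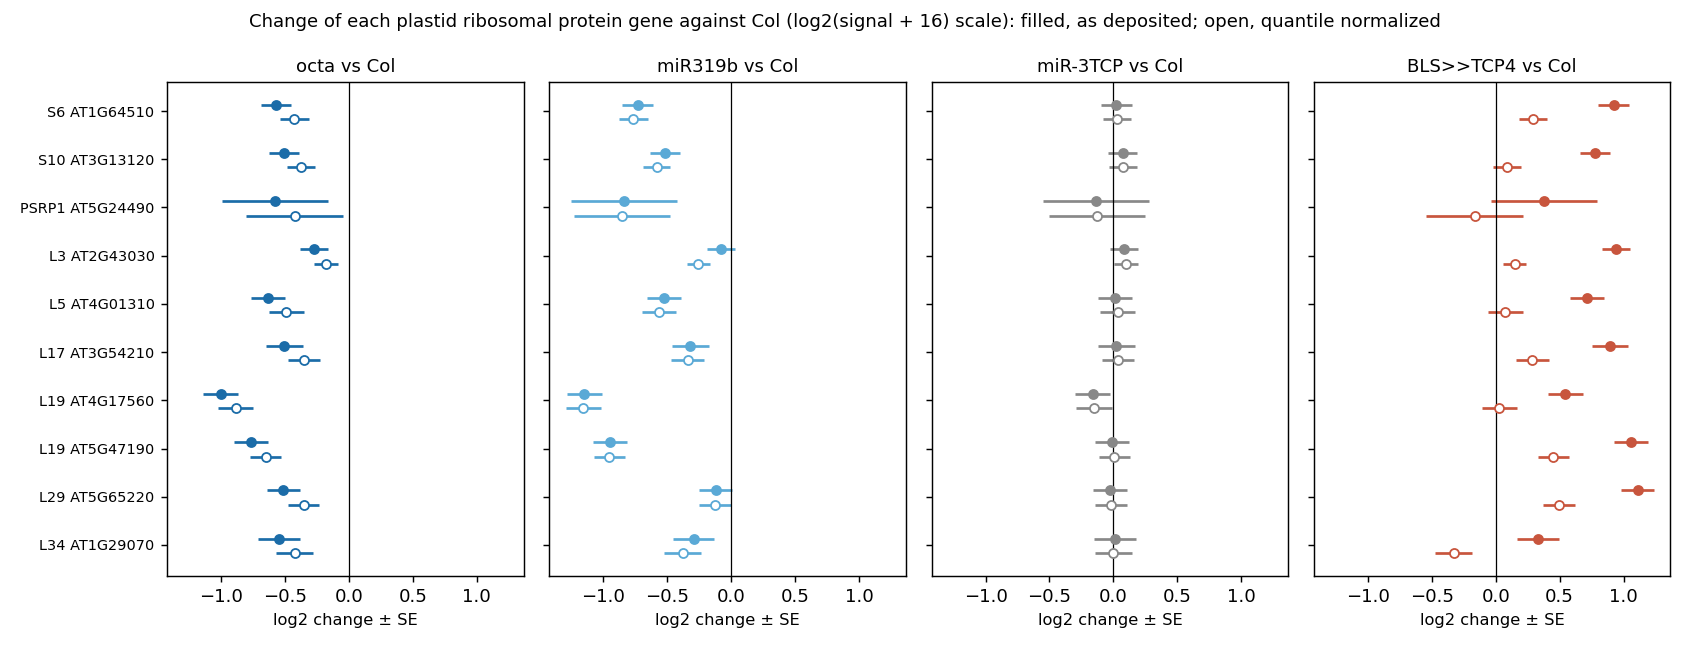
Log2 change of each plastid ribosomal protein gene against Col (x axis, on the log2(signal + 16) scale, with standard error) in octa, miR319b, miR-3TCP and BLS>>TCP4. Filled points are from the deposited values and open points from quantile-normalized values; for octa the medians of filled and open points are -0.56 and -0.42, for miR319b -0.52 and -0.57, for miR-3TCP 0.01 and 0.02, and for BLS>>TCP4 0.84 and 0.12.

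For reduced miR319 targets alone, miR319b was set against Col. The S6, S10 and both L19 genes fell, again 4 of 10, against 2.64% of all probe sets called lower and 1.16% called higher, with no member higher. The changes were -1.15 ± 0.14 for AT4G17560 (adjusted p = 0.00717), -0.95 ± 0.13 for AT5G47190 (adjusted p = 0.0127), -0.73 ± 0.12 for the S6 gene (adjusted p = 0.0177) and -0.52 ± 0.11 for the S10 gene (adjusted p = 0.0415). The other members spanned a wide range. As deposited, the L3 gene, at -0.08 ± 0.11, and the L29 gene, at -0.12 ± 0.13, had differences within about 1 standard error. With quantile normalization the L3 gene had -0.26 ± 0.09, also not called by limma (adjusted p = 0.130), and the L29 gene -0.13 ± 0.12. The L5, L17 and L34 genes had -0.53, -0.32 and -0.29 as deposited without passing the test. The PSRP1 gene had -0.83 ± 0.41 (adjusted p = 0.268), its standard error being the largest of the members. For 8 of 10 members both miR319b arrays were below both Col arrays, against 30.3% of all probe sets, and for all 10 with quantile normalization (27.5%).

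The members' median of -0.52 in miR319b went with a median of 0.11 over the 584 other bright probe sets, of which 4.45% were called lower and 4.45% higher. With quantile normalization the L5 gene was called as well (-0.56, adjusted p = 0.0465), which made 5 of 10 against 2.99% of all probe sets. With each array of miR319b and Col left out in turn, the members' median ranged from -0.69 to -0.36. The miR319b plants were older too, 17 DAS against 14 DAS in Col, which leaves age confounded with genotype.

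Since octa is taken to combine miR319b with miR-3TCP, the 4 arrays of octa and miR319b, with miR319b overexpression, were also set against the 4 Col-accession arrays without it, miR-3TCP and Col, in the same model. This comparison was added after the data had been seen. It called 7 of 10 members lower and none higher, against 7.25% of all probe sets called lower and 2.36% called higher. Of the other bright probe sets 16.3% were called lower. The changes were -0.99 ± 0.10 for AT4G17560 (adjusted p = 0.000914), -0.85 ± 0.09 for AT5G47190 (adjusted p = 0.00132), -0.66 ± 0.09 for S6 (adjusted p = 0.00235), -0.59 ± 0.09 for L5 (adjusted p = 0.00485) and -0.55 ± 0.08 for S10 (adjusted p = 0.00353). The L34 and L17 genes fell by 0.42 each on the log2 scale (adjusted p = 0.0470 and 0.0285). The L29, L3 and PSRP1 genes had -0.30, -0.22 and -0.64 and did not pass.

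For 8 of 10 members all 4 arrays with miR319b overexpression were below all 4 without it, against 12.7% of all probe sets tested and 21.2% of the other bright ones. The exceptions were the L3 and L29 genes, each with 1 miR319b array inside the range of the other arrays. With each of the 8 arrays left out in turn, the members' median ranged from -0.65 to -0.48. With all arrays and quantile normalization 8 members were called lower, the L3 gene being added (-0.27, adjusted p = 0.0277), against 6.54% of all probe sets. The 4 arrays with the transgene came from plants of 17 and 18 DAS and the other 4 from plants of 14 DAS.

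For reduced TCP5, TCP13 and TCP17, miR-3TCP was set against Col, both 14 DAS. No member passed the test by limma, 0 had an unadjusted p under 0.05, and the median log2 difference was 0.01 with a range of -0.16 to 0.08. The L19 gene AT4G17560 was at the lower end and the L3 gene at the upper end. Of all probe sets, 0.00733% were called. The standard error of a member's difference was 0.11 to 0.16 apart from the PSRP1 gene (0.41), so differences of that size were not detectable with 2 arrays a group.

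What reduced miR319 targets add to miR-3TCP was read from octa against miR-3TCP, whose difference of means does not use the Col arrays. Those arrays do enter the spread behind its standard errors and p-values. The S6, S10, L5 and both L19 genes fell, 5 of 10 members against 2.11% of all probe sets called lower, with a median of -0.57. AT4G17560 had -0.84 ± 0.14 (adjusted p = 0.0238), AT5G47190 -0.75 ± 0.13 (adjusted p = 0.0265), the L5 gene -0.65 ± 0.13 (adjusted p = 0.0393), the S6 gene -0.59 ± 0.12 (adjusted p = 0.0373) and the S10 gene -0.58 ± 0.11 (adjusted p = 0.0354). All 10 members were lower on both octa arrays than on both miR-3TCP arrays, as were 31.5% of all probe sets and 52.9% of the other bright ones. After quantile normalization 9 of 10 were, against 23.5% and 29.6%. With quantile normalization the 2 L19 genes stayed past the threshold (adjusted p = 0.0312 and 0.0287), against 1.71% of all probe sets. With each array of octa and miR-3TCP left out in turn, the changes were -0.97 to -0.71 for AT4G17560 and -0.89 to -0.61 for AT5G47190. The octa plants were 18 DAS and the miR-3TCP plants 14 DAS, so age is confounded with the added microRNA here too.

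What the targets of miR-3TCP add when those of miR319b are already reduced was read from octa against miR319b. No member passed the test there, against 0% of all probe sets. Log2 differences ranged from -0.39 to 0.26 with a median of -0.05, and by limma 1 member had an unadjusted p under 0.05, the L29 gene. The L3, L17, L29 and L34 genes were lower on both octa arrays than on both miR319b arrays, and the S6 gene and the L19 gene AT5G47190 were higher on both. Of all probe sets 27.9% were lower and 17.4% higher in that sense, and of the other bright probe sets 65.9% and 4.11%. With quantile normalization the balance turned, 1 member being lower and 4 higher, against 22% and 21.7% of all probe sets. The octa arrays had the dimmest bright signals of the series, the median over those 584 probe sets being 1373 and 1330.2 in octa and 1529.6 and 1572 in miR319b. The part of this in the members' differences was not tested, and with quantile normalization the median turned to 0.14. The effect of miR-3TCP with miR319b minus its effect without it was called for 0 members (unadjusted p under 0.05 for 0 by limma), against 0.00733% of all probe sets, with a median of -0.09, and of 0.09 with quantile normalization.

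**Figure D3:**
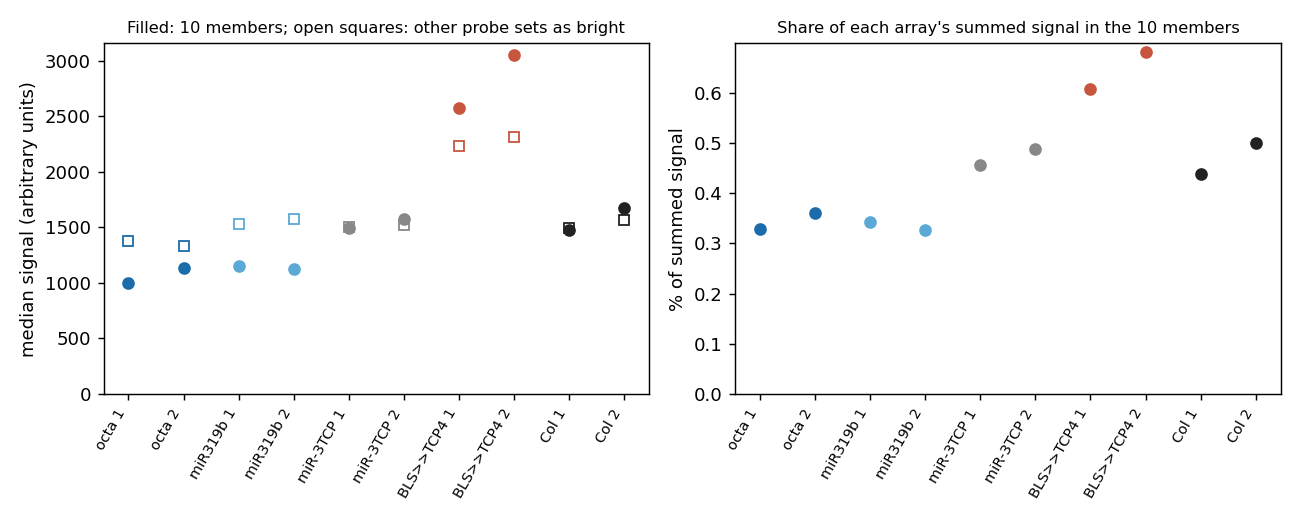
Left, median signal per array (y axis, linear arbitrary units) of the 10 members (filled points) and of the 584 other probe sets at least as bright as the dimmest member (open squares). Right, percentage of each array's summed signal held by the 10 members; the members' median is lower on the 4 octa and miR319b arrays (997 to 1155) than on the miR-3TCP and Col arrays (1476 to 1676), and both symbols are highest on the BLS>>TCP4 arrays.

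For raised TCP4 activity, BLS>>TCP4 was set against Col. As deposited, 8 of 10 members rose and none fell, against 17.3% of all probe sets called higher and 8.61% called lower. For the same 8 members both BLS>>TCP4 arrays were above both Col arrays, against 38.1% of all probe sets and 77.9% of the other bright ones, a share close to that of the members. With quantile normalization 5 members were higher and 1 lower in that sense, against 31.2% and 26.9% of all probe sets. The L29 gene had a log2 change of 1.11 ± 0.13 (2.16-fold, adjusted p = 0.000373), the L19 gene AT5G47190 1.06 ± 0.13 (2.09-fold, adjusted p = 0.000548), the L3 gene 0.94 ± 0.11 (adjusted p = 0.000363) and the S6 gene 0.92 ± 0.12 (adjusted p = 0.000659). The L17, S10 and L5 genes rose by 0.89, 0.78 and 0.72. The other L19 gene, AT4G17560, rose by 0.54 ± 0.14 (adjusted p = 0.0167), the smallest called change. The PSRP1 gene (0.38 ± 0.41) and the L34 gene (0.33 ± 0.16) did not pass. Without BLS>>TCP4 replicate 1 they were at 1.14 and 0.55, while without BLS>>TCP4 replicate 2 the PSRP1 gene (AT5G24490) was at -0.38. AT4G17560 was at 0.48 without Col replicate 1.

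Bright probe sets were raised in general on the BLS>>TCP4 arrays. Of the 584 other bright probe sets 63.7% were called higher, and their median log2 change was 0.60, beside the members' 0.84 and the 0.10 over all probe sets. The median signal of those 584 probe sets was 2231 and 2308 in BLS>>TCP4, against 1497 and 1569 in Col. With quantile normalization the members' median was 0.12, and the bright probe sets had -0.04. Then 2 members were called higher, the L29 gene (0.50 ± 0.12, adjusted p = 0.0224) and AT5G47190 (0.45 ± 0.12, adjusted p = 0.0303), against 9.16% of all probe sets. The L34 and PSRP1 genes changed sign to -0.33 and -0.16, neither called, and AT4G17560 was at 0.03 ± 0.14.

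After quantile normalization the L29 gene had values of 1804 and 2049 in BLS>>TCP4, against 1359 and 1355 in Col, and AT5G47190 had 1766 and 1814 in BLS>>TCP4, against 1217 and 1401 in Col. Both were higher on both BLS>>TCP4 arrays with either scaling. Over all probe sets, calls were split into 2355 higher and 1175 lower as deposited and 1250 higher and 1216 lower after quantile normalization. Because the BLS>>TCP4 plants were Ler and the others Col, an effect of the Ler background and one of TCP4 cannot be told apart. The root marker PYK10 was dimmer there too, with 992 and 1508 in BLS>>TCP4, against 1886 and 1917 in Col, and its part in the members' changes was not tested.

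The L29 gene and the L19 gene AT4G17560 took different places in the order of the members. The L29 gene had the largest change in BLS>>TCP4 (1.11) and one of the smallest in miR319b (-0.12), while AT4G17560 had the largest in miR319b (-1.15) and the smallest called change in BLS>>TCP4 (0.54). The comparisons share the Col arrays, and the difference between the 2 genes was not tested.

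Other genes of plastid translation were read from lists of factors known to act on plastid translation, ribosome assembly or ribosomal RNA. Of 23 such genes 9 were listed and tested, most of them given by locus code only. Between octa and Col 1 of 9 fell, AT5G66470 (-0.86 ± 0.18, adjusted p = 0.0474), against 1.52% of all probe sets, and with quantile normalization none did (AT5G66470 at -0.78, adjusted p = 0.0591). Between miR319b and Col none was called, although 6 had an unadjusted p under 0.05 by limma. All 9 had negative differences in both, with medians of -0.45 and -0.50. In the comparison of 4 against 4 arrays 8 of 9 fell, and 6 did so with quantile normalization, against 7.25% and 6.54% of all probe sets. Among the 8 were AT5G66470 (-0.71 ± 0.13, adjusted p = 0.00763) and RH39 (-0.70 ± 0.15, adjusted p = 0.0194), a gene of an RNA helicase for plastid ribosomal RNA. FUG1, the gene of the plastid initiation factor of the IF2 type, fell by 0.42 (adjusted p = 0.0375).

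In BLS>>TCP4 8 of these 9 factor genes rose (median 0.76), against 17.3% of all probe sets. With quantile normalization 4 did so (median 0.52), against 9.16% of all probe sets. The difference in accession applies to these values too. Among those 4 were AT2G24060 (0.77, adjusted p = 0.00678) and AT5G46580 (0.98, adjusted p = 0.0123). Of a list of 21 genes written down for plastid transcription only PAC was tested. Its differences were -0.24 in octa, -0.08 in miR319b, 0.39 in miR-3TCP and 0.37 in BLS>>TCP4, none called. PAC alone, whose part in transcription was not examined here, cannot stand for plastid transcription.

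Of 21 ribosomal protein genes of the plastid genome itself 15 had a listed probe set and 1, rpl36, was bright enough to test. It had signals of 25.6 and 36.2 in octa, 23.5 and 18.6 in miR319b, 29.6 and 36.8 in miR-3TCP, 63.1 and 22.7 in BLS>>TCP4, and 29.4 and 45.1 in Col, and passed no test. For 13 of the 15 the mean signal was highest in BLS>>TCP4, as it was for 47.6% of all probe sets other than controls and 50.4% of those too dim to test. This is a description of mostly dim signals on arrays that also differ in accession and in scale, and no test was made. The most uneven was rps4, singled out after its values were seen, with signals of 183 and 283 in BLS>>TCP4 and 1.47 to 6.77 on the 8 other arrays, and it was too dim on average to be tested.

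Ribosomal protein genes of the other compartments were counted beside them, from lists written after the tables had been seen. In the comparison of 4 against 4 arrays, none of 117 genes for cytosolic ribosomal proteins fell and 2 rose (median 0.10). Of 26 genes for mitochondrial ribosomal proteins none fell and 1 rose (median 0.00 on the log2 scale), where 7 of the 10 plastid genes fell. Of all probe sets 7.25% were called lower and 2.36% higher there. Between miR319b and Col 8 of 117 cytosolic genes (6.84%) rose and none fell, with a median of 0.30. That compares with 1.16% of all probe sets called higher and 4.45% of the other bright ones. There 0 of 26 mitochondrial genes were called, with a median of 0.13. In BLS>>TCP4 58 of 117 cytosolic genes (49.6%) rose and 1 fell (median 0.42), and 2 of 26 mitochondrial genes rose and 2 fell (median -0.03). Of all probe sets 17.3% were called higher and 8.61% lower, and of the other bright ones 63.7% and 3.08%. After quantile normalization 4 cytosolic genes rose and 10 fell (median -0.06), against 9.16% and 8.91% of all probe sets. No test of the difference between lists was made.

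AT5G56940, a gene for an S16-type protein thought to serve both plastids and mitochondria, was not counted as a member. It had signals of 288 and 278 in octa, 343 and 362 in miR319b, 355 and 321 in miR-3TCP, 242 and 239.8 in BLS>>TCP4, and 297 and 316 in Col. It was called in none of these comparisons as deposited, and was lower in BLS>>TCP4 with quantile normalization (-0.43, adjusted p = 0.0402).

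**Figure D4:**
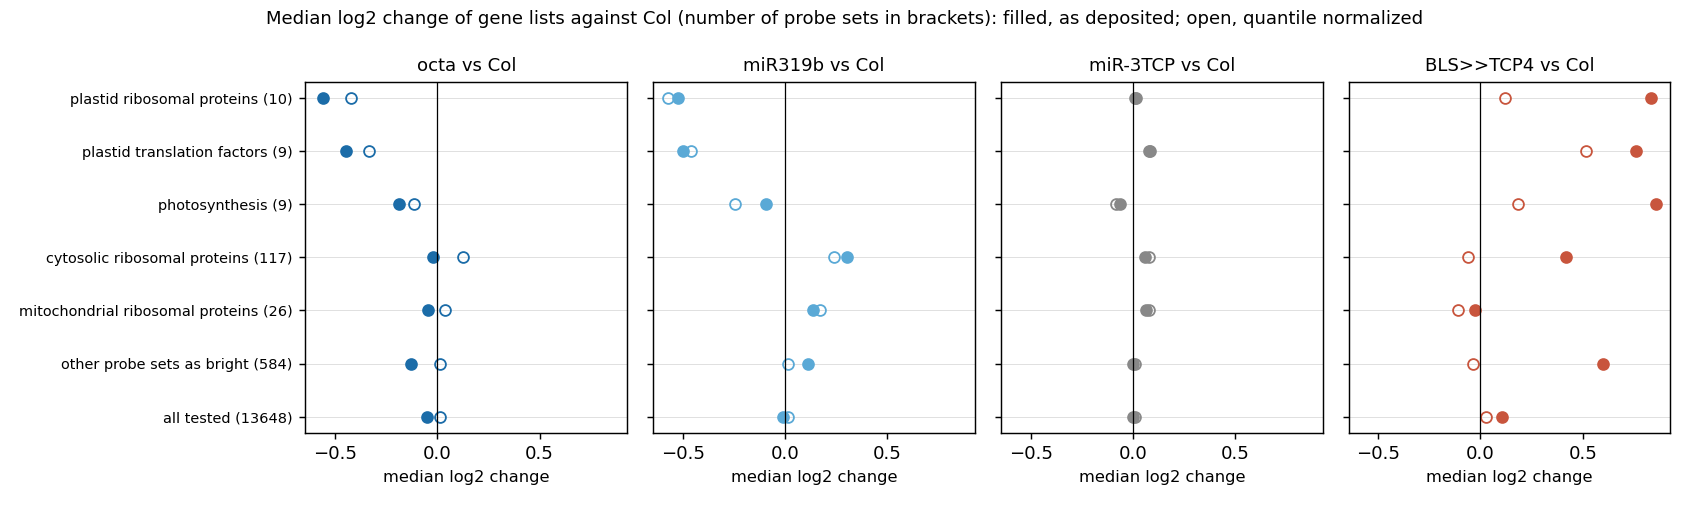
Median log2 change against Col (x axis) in octa, miR319b, miR-3TCP and BLS>>TCP4 for gene lists with the number of probe sets in brackets. Filled points are from the deposited values and open points from quantile-normalized values; plastid ribosomal protein and plastid translation factor genes lie left of 0 in octa and miR319b with either scaling, where cytosolic ribosomal protein genes lie between -0.02 and 0.30.

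Photosynthesis genes, 9 in all, were counted in the same way. In the comparison of 4 against 4 arrays 1 of 9 fell, PSBY of photosystem II (-0.27 ± 0.07, adjusted p = 0.0381), against 7.25% of all probe sets. The list's median was -0.14, and 3 fell with quantile normalization, against 6.54% of all probe sets. RCA had -0.06 in octa and 0.01 in miR319b against Col. Between miR319b and Col the list's median was -0.09 with none called, against 2.64% of all probe sets called lower. Quantile normalization gave a median of -0.25 with 2 genes lower, against 2.99% of all probe sets, and RCA at -0.25 (adjusted p = 0.0858). In BLS>>TCP4 8 of 9 rose (median 0.86), against 17.3% of all probe sets and 63.7% of the other bright ones. After quantile normalization 2 were higher and 1 lower (median 0.18), against 9.16% and 8.91% of all probe sets.

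Among 7361 other named probe sets, the 5 with the highest Pearson correlation to the members' mean pattern over the 10 arrays were NdhN (r = 0.994), AT1G04420 (0.993), AT2G43640 (0.993), AT3G52960 (0.992) and AT4G31530 (0.992). NdhN encodes a subunit of the NDH complex of the thylakoid membrane. Its mean signal was 127 in octa, 139 in miR319b, 229 in miR-3TCP, 586 in BLS>>TCP4 and 225 in Col. It was lowest in octa and miR319b and highest in BLS>>TCP4, an order that follows from its choice by correlation with the members. After quantile normalization the 5 correlations were 0.869 to 0.920. These are descriptions over 10 arrays that share groups and scaling, without a test.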

How the data were processed

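RNA from 10 samples was hybridised to an Affymetrix Arabidopsis array, 1 array a sample. The deposited values are MAS5 signal intensities on a linear scale, per the labels. Its version and settings were not stated in these sources, and every array has a median of 50, which can hide a shift shared by most genes and does not equalise bright signals. Arrays carry no read depth, so their number (2 a group) limits precision.

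Values were taken as log2(intensity + 16), which understates changes of dim genes. Of 22810 probe sets, 64 controls were removed and the 13648 at or above the 40th percentile of mean level were tested. A term for each group was fitted to all 10 arrays with limma (version 3.58.1, under R 4.3.3; moderated variances with an intensity trend), leaving 5 residual degrees of freedom, and p-values were adjusted by Benjamini-Hochberg over all 13648 probe sets for each comparison, with 0.05 as the threshold. The procedure was tested on simulated data. Standard errors are limma's.

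The platform annotation names 1 gene for 13513 probe sets, several for 503 and is silent on 8730. Symbols were updated through RefSeq. It gives no descriptions, so genes were matched by locus code: the members and the lists of plastid translation and transcription genes from codes written down at the start, and the lists of cytosolic and mitochondrial ribosomal proteins and photosynthesis genes after the tables had been seen. Members and lists were all chosen with earlier results of these data known. Every member was to be named, with called members of the other lists and the 5 probe sets most correlated with the members' mean log2 level. Alternatives were other pseudocounts (1 and 64), filters (none or the 60th percentile), scalings (quantile, median centring), variance models, subsets of arrays, a replicate block and omission of each array.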

Additional observations from a re-analysis of the deposited data

How the results depend on the processing

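The members' median kept its sign in octa, miR319b and BLS>>TCP4 against Col, in octa against miR-3TCP and in the comparison of 4 against 4 arrays under every alternative run. Counts of called members were less stable. Among the alternatives, the share of all probe sets called is given here only for quantile normalization. The other counts may therefore reflect how many probe sets a fit called in all, and they are not results about the members. The same holds for counts with an array left out or with a replicate block. In octa against Col the count was 4, and it was 2 with a pseudocount of 64, quantile normalization, median centring, no intensity trend or only the arrays compared, 1 with no filter and 7 without the BLS>>TCP4 arrays. In octa against miR-3TCP it was 5, and it was 2 with quantile normalization, median centring or no intensity trend and 1 with no filter. In BLS>>TCP4 it was 8, and 2 with quantile normalization. Quantile normalization moved the median to -0.42 in octa, 0.12 in BLS>>TCP4, 0.14 in octa against miR319b, -0.43 in octa against miR-3TCP and 0.086 for the effect of miR-3TCP with minus without miR319b. The cause was not tested.

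Leaving out 1 array at a time, with a lone array assumed to vary like the other groups, gave counts of 0 in octa and in octa against miR-3TCP, 0 to 1 in miR319b, 7 to 10 in BLS>>TCP4 and 5 to 7 for 4 against 4 arrays. Medians ranged from -0.66 to -0.46 in octa, -0.69 to -0.36 in miR319b, -0.12 to 0.14 in miR-3TCP, 0.70 to 0.99 in BLS>>TCP4, -0.65 to -0.51 in octa against miR-3TCP, -0.10 to 0.0070 in octa against miR319b, -0.65 to -0.48 for 4 against 4 arrays and -0.26 to 0.074 for the effect of miR-3TCP with minus without miR319b.

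No called change of a member turned sign. With quantile normalization these uncalled log2 differences did: AT5G24490 (-0.16) and AT1G29070 (-0.33) in BLS>>TCP4, AT5G47190 (0.0066) and AT1G29070 (-0.0023) in miR-3TCP, AT2G43030 (0.076) and AT4G01310 (0.075) in octa against miR319b, and AT3G13120 (0.13) and AT4G01310 (0.040) for the effect of miR-3TCP with minus without miR319b. With 1 array left out at a time, uncalled differences crossed 0 over these ranges. AT5G24490 ran from -0.38 to 1.14 in BLS>>TCP4 and AT2G43030 from -0.21 to 0.047 in miR319b. In octa against miR319b AT3G13120 ran from -0.017 to 0.036 and AT5G24490 from -0.13 to 0.65. For the effect of miR-3TCP with minus without miR319b AT5G24490 ran from -0.00012 to 0.79, AT3G13120 from -0.21 to 0.087 and AT4G01310 from -0.30 to 0.060. In miR-3TCP AT1G64510 ran from -0.074 to 0.12, AT3G13120 from -0.078 to 0.22, AT4G01310 from -0.17 to 0.19, AT3G54210 from -0.10 to 0.15, AT5G47190 from -0.15 to 0.13, AT5G65220 from -0.063 to 0.0093 and AT1G29070 from -0.16 to 0.18.

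Groups share replicate numbers, which the labels do not say pair the samples, and deviations of same-numbered samples correlated between -0.401 and 0.451. A fit with replicate number as a block gave counts of 3 in octa, 4 in miR319b, 8 in BLS>>TCP4, 6 in octa against miR-3TCP, 8 for 4 against 4 arrays and 0 in the other comparisons. Choosing members by gene description was not run, since the annotation used here has none.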
